A study of Mus musculus with 14 samples.

Results

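The genes described here are the CD4 and CD8 coreceptors and the regulators that set which of them a T cell keeps: Cd4, Cd8a, Cd8b1, Zbtb7b, Runx3, Runx1, Cbfb, Gata3, Tox and Satb1. They were taken by symbol from the array annotation, with the single-symbol probe set of highest mean per gene. All 10 were found among 19937 symbols, each with exactly 1 such probe set, and all 10 passed the filter on low values among 13641 genes tested. Cd4, Cd8a and Cd8b1 lie on chromosome 6 of the mouse GRCm38.p6 RefSeq table (probe sets 10547894, 10538993 and 10538979). Zbtb7b (10499612), Gata3 (10479981) and Tox (10511416) lie on chromosomes 3, 2 and 4. Runx3 (10509030), Runx1 (10441003), Cbfb (10574632) and Satb1 (10451763) lie on chromosomes 4, 16, 8 and 17.

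RNA was measured on 14 single-channel arrays, 1 per sample of T cells from C57BL/6 mice, and each value is a log2 RMA expression value. CD4+CD8+ thymocytes came from the thymus of wild type mice (WT, n = 3, all aged 7 months) and of ENK KO mice (n = 2, aged 7 and 2 months). CD8+ lymphocytes came from the spleen of WT mice (n = 4, all 7 months) and ENK KO mice (n = 5, aged 2, 2, 6, 7 and 9 months). Engrailed-2, the homeobox factor in the title of the series, is the only clue to ENK, and no source used here states the allele, the cells in which it acts or any pooling of animals. All 2-month-old animals are ENK KO and female, so genotype, age and sex overlap in part. Samples that differ in age or sex do not come from the same animal. Since no label calls each sample a separate animal, the spread behind each p-value may still be technical in part.

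Thymocytes pass through a stage at which they carry both coreceptors, and then keep CD4 as helper cells or CD8 as cytotoxic cells. CD4 binds MHC class II and the CD8 alpha and beta chains bind MHC class I, and both bring the kinase Lck to the T cell receptor. ThPOK, the product of Zbtb7b, holds cells in the CD4 lineage, with Gata3 and Tox acting upstream of it. Runx3, with its partner subunit encoded by Cbfb, silences Cd4 and sustains CD8 expression in cytotoxic cells, and Runx1 represses Cd4 at earlier stages. Satb1 is a chromatin organiser abundant in thymocytes that acts at the loci of these lineage genes.

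Sequences are shown to let the Runx genes, which moved in opposite directions between the 2 populations, be compared at their own start sites. Promoter windows of 300 bases, 250 of them upstream, were taken from RefSeq on GRCm38.p6. Of the 10 genes, 7 had windows (14 in all). The hexamer TGTGGT, the core letters bound by Runx factors, was searched on both strands, where it reads ACCACA on the other. It was in 16.8% of all 32851 windows. The windows at the upstream start sites of Runx3 and of Runx1 each held 2 copies in the same direction with 2 bases between them, a pattern found in 7 of the 32851 windows on either strand (0.0213%). Those 7 include these 2 windows, so the share is a description and no test. A Zbtb7b window held 1 copy. The other 11 windows, of Cd8a, Gata3, Cbfb and Satb1 and the remaining windows of Zbtb7b, Runx1 and Runx3, held 0. Each line gives 30 bases in the direction of transcription, with the hexamers in capitals.
Runx3, chr4:135120503-135120532, plus strand, first hexamer at position -134 from the start: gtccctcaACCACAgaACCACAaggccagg
Runx1, chr16:92826025-92826054, minus strand, first hexamer at position 28 after the start: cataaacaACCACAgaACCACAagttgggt
Zbtb7b, chr3:89387743-89387772, minus strand, hexamer at position -89 from the start: ctggcgaggaacTGTGGTatgtgagtgggt
The 250 bases upstream of that Runx3 start (chr4:135120395-135120644, plus strand) are shown whole, since Runx3 had the largest rise of the 10 genes: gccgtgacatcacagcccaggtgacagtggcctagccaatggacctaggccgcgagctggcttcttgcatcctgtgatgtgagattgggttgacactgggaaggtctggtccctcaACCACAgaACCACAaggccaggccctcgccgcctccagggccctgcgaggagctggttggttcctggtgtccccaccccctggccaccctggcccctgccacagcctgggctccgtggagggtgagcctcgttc
These matches describe letters only, and no binding was measured.

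The array labelled spleen ENK KO replicate 28 went against its CD8+ label and is shown apart, except in the search for genes with like profiles, which includes it. Its Cd4 level was 12.20, against 6.61 to 6.92 on the 8 other spleen arrays, and its Cd8a and Cd8b1 levels were 6.78 and 9.10, against at least 12.06 and 13.20. On the other 13 arrays the coreceptor genes followed the sorted populations, and the thymocyte genes Rag1, Rag2 and Dntt were lower on every spleen array, replicate 28 included, than on any thymus array. Array medians lay between 7.14 and 7.25, and the correlation between 2 arrays was 0.994 to 0.996 within thymus and 0.987 to 0.995 within spleen. A level under 6.76, the 40th percentile of all values, is hard to tell from background. In sorted bulk RNA, fewer cells with a transcript and less transcript per cell cannot be told apart.

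The comparison of the populations asks how the coreceptor and regulator genes differ between double-positive thymocytes and mature CD8+ T cells. In WT mice Cd4 was at least 74.9-fold lower and Runx3 13.2-fold higher in spleen CD8+ cells, while Runx1, Gata3, Tox and Satb1 were 1.76- to 2.37-fold lower. Limma called 7 of the 10 genes changed at an adjusted p under 0.05 with all 14 arrays, 1 higher and 6 lower. Across all genes tested 68.6% were called (30.5% higher and 38.2% lower), so that count is near the background. Without replicate 28, whose spread enters the shared error, all 10 were called, 2 higher and 8 lower, against 70.1% of all genes (31.3% higher and 38.8% lower). The values of the 2 WT groups did not overlap for any of the 10 genes, against 71.8% of all genes. The median log2 difference was -0.76 over the 10 genes and -0.045 over all genes tested, and the median size was 0.96 against 0.31. The passing members include Zbtb7b, which exceeded the filter level only on the 9 spleen arrays and therefore had to differ. Cd4 encodes the marker by which the labels separate the 2 populations. Its difference and its place in these counts, here and in ENK KO mice, are therefore no independent result.

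**Figure D1:**
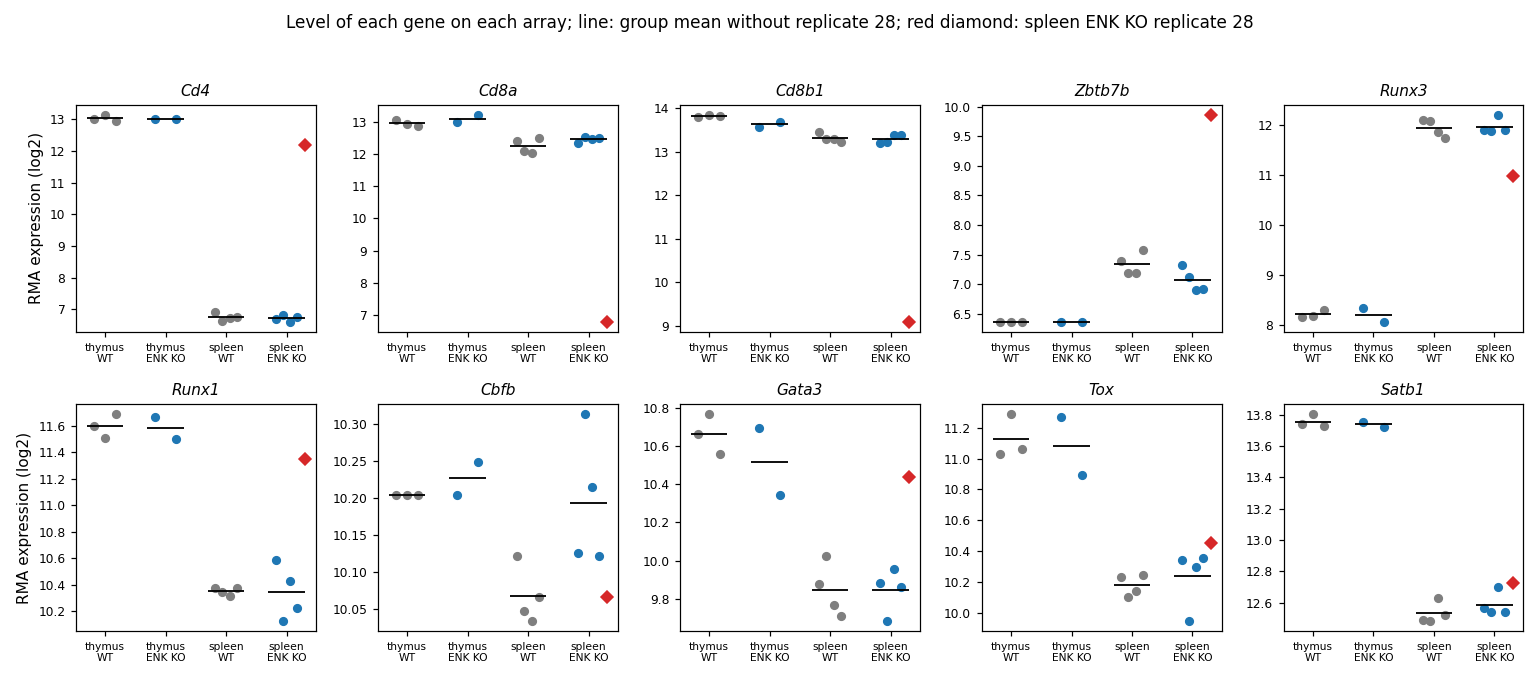
Log2 RMA level of each of the 10 genes on each of the 14 arrays (vertical axes, 1 scale per gene), by group. Grey points are WT, blue points ENK KO, lines the group means without replicate 28, and the red diamond spleen ENK KO replicate 28. Thymus arrays lie at 12.94 to 13.13 for Cd4 and the spleen arrays other than replicate 28 at 6.61 to 6.92.

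The coreceptor genes come first. Cd4 stood at 13.01, 13.13 and 12.94 on the WT thymus arrays, at 13.02 on both ENK KO thymus arrays, and at 6.92, 6.62, 6.71 and 6.75 on the WT spleen arrays. The ENK KO spleen arrays other than replicate 28 stood at 6.70, 6.81, 6.61 and 6.75, so all 8 of these spleen arrays lay at or near the filter level. The fold is therefore a lower bound, with each spleen array set to no less than that level. The WT difference was -6.28 on the log2 scale (SE 1.06, limma adjusted p = 0.000157; SE 0.073, adjusted p = 3.28e-14 without replicate 28). Both populations are sorted for CD8, and both kept Cd8a and Cd8b1 at high levels. Cd8a, which encodes the alpha chain, stood at 13.08, 12.95 and 12.89 in WT thymus and at 12.42, 12.10, 12.06 and 12.52 in WT spleen. Every thymus array was above every spleen array, by a mean of 0.70 (SE 1.10, adjusted p = 0.586 with all arrays; SE 0.11, adjusted p = 9.00e-05 without replicate 28). Cd8b1, the beta chain gene, stood at 13.81, 13.84 and 13.83 in WT thymus and 13.45, 13.30, 13.28 and 13.21 in WT spleen. Its log2 difference was -0.51 (adjusted p = 0.59 with all arrays and 1.05e-05 without replicate 28), again with no overlap between the groups.

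The Runx genes moved in opposite directions. Runx3 stood at 8.16, 8.19 and 8.30 in WT thymus and at 12.10, 12.07, 11.87 and 11.73 in WT spleen, a log2 difference of 3.72 (SE 0.22, adjusted p = 7.89e-09). Runx1 stood at 11.60, 11.50 and 11.68 in WT thymus and at 10.37, 10.34, 10.32 and 10.37 in WT spleen, a difference of -1.24 (SE 0.21, adjusted p = 0.000189). Neither gene had any spleen array within the thymus range. Cbfb, the subunit with which both pair, stood at 10.20 on all 3 WT thymus arrays and between 10.03 and 10.12 in WT spleen. Its difference of -0.14 (SE 0.055, adjusted p = 0.0415) was the smallest of the 10 and did not hold under single changes. Quantile normalization of all arrays left -0.011 (adjusted p = 0.873), and the call was lost without any of the 5 thymus arrays or without WT spleen replicate 22, 34 or 37 (adjusted p from 0.051 to 0.0874).

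Among the regulators tied to the CD4 lineage, Gata3 and Tox were lower in the spleen and Zbtb7b was not. Gata3, which encodes a zinc finger factor, stood at 10.66, 10.76 and 10.56 in WT thymus and at 9.88, 10.03, 9.77 and 9.71 in WT spleen (difference -0.82, SE 0.15, adjusted p = 0.000301). Tox, an HMG-box factor that CD4+ T cell development requires, stood at 11.03, 11.29 and 11.06 in WT thymus and at 10.24, 10.10, 10.14 and 10.24 in WT spleen (difference -0.95, SE 0.12, adjusted p = 1.03e-05). Zbtb7b was listed at 6.37 on all 5 thymus arrays, under the filter level, and at 7.39, 7.19, 7.19 and 7.58 in WT spleen. The difference of 0.97 had adjusted p = 0.132 with all arrays and 5.85e-06 without replicate 28, and it sits at the low end of the signal, where a fold is compressed. A value repeated on all 5 thymus arrays was found for 748 of the genes tested (5.48%). Any pair of thymus arrays held equal values for 19.2% to 25.8% of genes, against 3.06% to 6.03% for any pair of spleen arrays. Cd4 in ENK KO thymus and Cbfb in WT thymus were also such repeats, with an SD of 0. The thymus spread behind the p-values may thus be understated, and the cause of such repeats was not tested. Satb1 stood at 13.74, 13.80 and 13.73 in WT thymus and at 12.49, 12.49, 12.63 and 12.52 in WT spleen (difference -1.22, SE 0.053, adjusted p = 5.10e-10), with the groups fully separate.

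The same comparison within ENK KO mice uses other arrays. With all arrays limma called 6 of the 10 genes, with Runx3 higher and Cd4, Runx1, Gata3, Tox and Satb1 lower. Of all genes 64.4% were called (27.4% higher and 37.1% lower). Without replicate 28 it called 9 of 10, 2 higher and 7 lower, against 65% of all genes (27.9% higher and 37.2% lower), with Cbfb the exception at -0.033 (adjusted p = 0.633). In that fit Cd4 differed by -6.30 (SE 0.082), Runx3 by 3.76 (SE 0.12), Runx1 by -1.24 (SE 0.11) and Satb1 by -1.15 (SE 0.054). Cd8a and Cd8b1 differed by -0.65 (SE 0.12) and -0.33 (SE 0.069), and Zbtb7b by 0.69 (SE 0.12). Gata3 differed by -0.67 (SE 0.11) and Tox by -0.84 (SE 0.13). The values of the 2 ENK KO groups did not overlap for 8 of the 10 genes with all arrays (70.5% of all genes) and for 9 without replicate 28 (74.6%). With all 14 arrays Cd4 differed by -5.21 and Cd8a by -1.79, against -6.30 and -0.65 without that 1 array. In fits that kept replicate 28, the Gata3 call was lost without thymus ENK KO replicate 29 (-0.38), and the Cd4 call without the 2-month-old animals (-4.52). Both fits left 1 thymus ENK KO array. In the latter the spleen ENK KO arrays had Cd4 at 12.20 on replicate 28 and at 6.70 and 6.61 on the others. The difference between the WT and the ENK KO comparison, tested as the spleen effect minus the thymus effect, was called for 0 of the 10 genes in either fit (0.00733% of all genes). At an unadjusted p under 0.05 it also gave 0 of the 10, against 2.99% of all genes with all arrays and 3.61% without replicate 28.

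**Figure D2:**
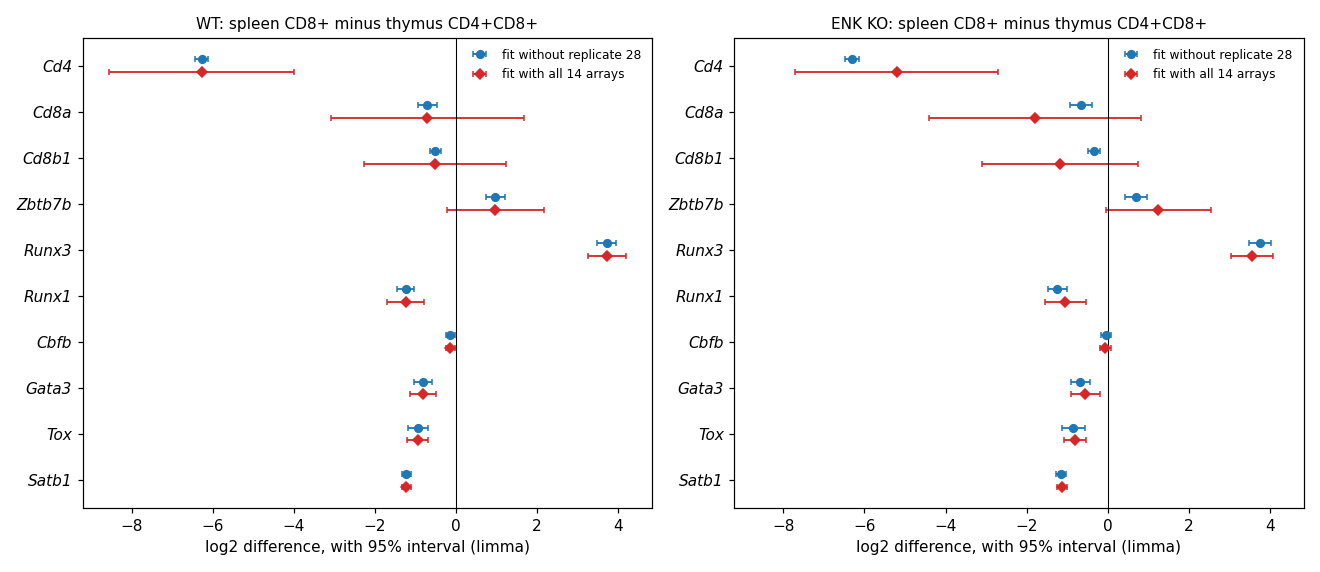
Log2 difference between spleen CD8+ cells and thymus CD4+CD8+ cells for each gene, in WT (left) and ENK KO (right), with 95% intervals from limma. Blue points are the fit without replicate 28 and red diamonds the fit with all 14 arrays. Cd4 lies at -6.28 in WT and, without replicate 28, at -6.30 in ENK KO, and Runx3 at 3.72 and 3.76.

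In order of level, thymus and spleen groups were separate for 9 of the 10 genes, leaving replicate 28 aside, against 58.9% of all genes, and Cbfb was the exception. Within a tissue the neighbouring WT and ENK KO groups overlapped or shared a value for every gene but Cd8b1 in thymus. For Cd8a, the order from low to high was spleen WT, spleen ENK KO, thymus WT and thymus ENK KO, with a gap of 0.36 between the tissues. For Runx3 it was thymus ENK KO, thymus WT, spleen WT and spleen ENK KO, with a gap of 3.43 between the tissues.

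The comparison the design asks for is ENK KO against WT within each population. In thymus none of the 10 genes was called (0.0147% of all genes were called with all arrays and 0.0367% without replicate 28), and at an unadjusted p under 0.05 limma gave 0 of 10 with all arrays (3.53% of all genes) and 1 of 10 without replicate 28 (4.07%). That gene was Cd8b1, which stood at 13.57 and 13.69 on the ENK KO arrays and at 13.81 to 13.84 on the WT arrays. The groups did not overlap, as was true of 9.25% of all genes. The log2 difference was -0.20 (95% interval -0.36 to -0.037, unadjusted p = 0.0198, adjusted p = 1 without replicate 28). Cd8a lay the other way, at 13.02 and 13.23 on the ENK KO arrays against 12.89 to 13.08 on the WT arrays, and these ranges overlapped (difference 0.15, interval -0.13 to 0.43). Cd4 differed by -0.0029 (interval -0.19 to 0.19) and Runx3 by -0.012 (interval -0.29 to 0.27). The 7-month-old ENK KO array had Runx3 at 8.34, Gata3 at 10.69 and Tox at 11.27, and the 2-month-old one had 8.07, 10.34 and 10.89. The 2 ENK KO arrays thus differed from each other more than the 2 group means did for these 3 genes, whose mean differences were -0.012, -0.14 and -0.044. Over the 10 genes the intervals without replicate 28 reached from -0.40 (Gata3) to 0.43 (Cd8a). With all 14 arrays, whose shared spread holds replicate 28, those of Cd4 and Cd8a reached from -2.74 to 2.74 and from -2.70 to 3.00.

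In spleen none of the 10 genes was called either, with all arrays (0.00733% of all genes called) or without replicate 28 (0.0147%). For 5 genes the direction turned when replicate 28 was left out. Cd4 went from 1.06 (SE 0.93) to -0.031 (95% interval -0.18 to 0.12), and Cd8a from -0.94 (SE 0.97) to 0.20 (interval -0.021 to 0.41). Zbtb7b went from 0.28 to -0.28, Runx3 from -0.17 to 0.025 and Runx1 from 0.19 to -0.011. Cd8b1 kept its sign but went from -0.86 to -0.016 (interval -0.14 to 0.11). Gata3 went from 0.12 to 0.0010, while Tox (0.10 and 0.057) and Satb1 (0.083 and 0.055) moved little. At an unadjusted p under 0.05 limma gave 0 of 10 with all arrays (8.37% of all genes) and 2 of 10 without replicate 28 (9.72%), namely Zbtb7b and Cbfb. Zbtb7b stood at 7.32, 7.11, 6.89 and 6.91 on the 4 other ENK KO arrays against 7.19 to 7.58 on the WT arrays, with overlap (interval -0.50 to -0.058, unadjusted p = 0.0175, adjusted p = 0.468). Cbfb stood at 10.13, 10.31, 10.22 and 10.12 against 10.03 to 10.12, so the groups touched at 1 value (difference 0.13, interval 0.025 to 0.23, adjusted p = 0.468). The values of the 2 genotypes were separate for 0 of the 10 genes in spleen, against 1.71% of all genes with all arrays and 3.56% without replicate 28. Without replicate 28 the intervals reached from -0.50 (Zbtb7b) to 0.41 (Cd8a), and a p above the threshold does not show that the genotypes are equal within them.

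**Figure D3:**
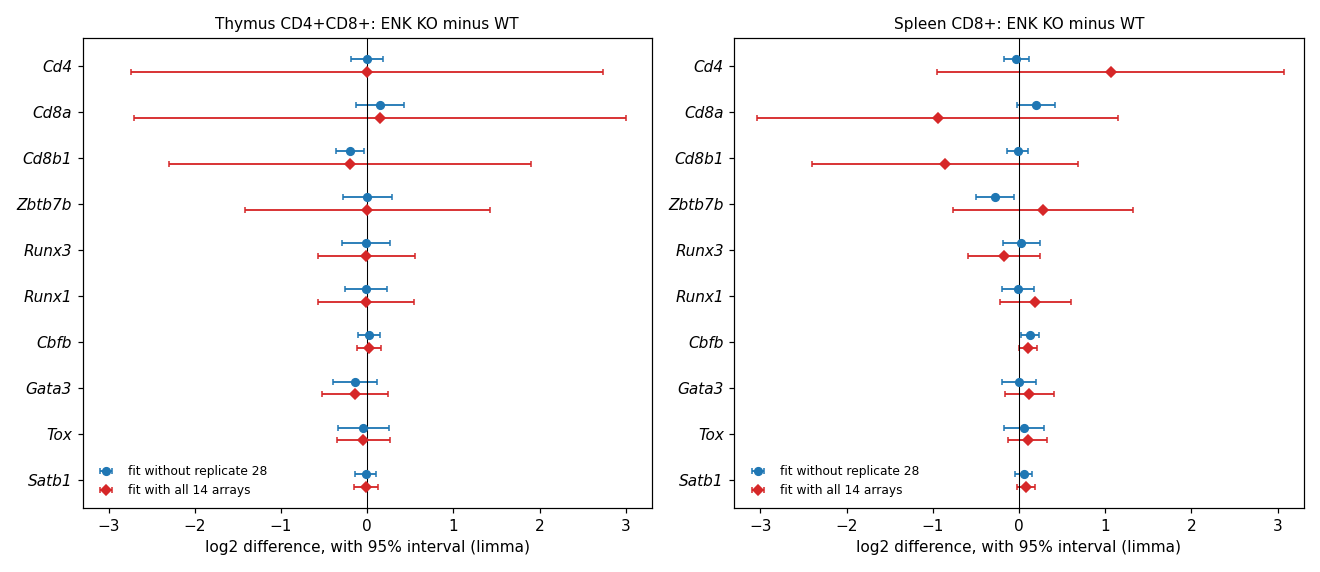
Log2 difference between ENK KO and WT for each gene in thymus (left) and spleen (right), with 95% intervals from limma. Blue points are the fit without replicate 28, with intervals between -0.50 and 0.43, and red diamonds the fit with all 14 arrays, where the interval of Cd8a in spleen runs from -3.03 to 1.15.

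Replicate 28 of the spleen ENK KO group, from a 6-month-old male, differed from its group in coreceptors and regulators at once. Its Cd4 was at least 43.0-fold above the mean of the other 4 ENK KO spleen arrays, with those set to no less than the filter level, and its Zbtb7b was 2.80 above, 6.95-fold. Its Cd8a, at 6.78 just over the filter level, differed by -5.69 (at least 51.5-fold) and its Cd8b1 by -4.20 (18.4-fold). The Runx genes lay between the populations. Runx3 was at 10.97, under the 11.73 to 12.19 of the other spleen arrays and over the 8.07 to 8.34 of thymus. Runx1 was at 11.35, over the 10.13 to 10.58 of the other spleen arrays and just under the 11.50 to 11.68 of thymus. Gata3 was at 10.44, above the other spleen arrays (up to 10.03) and inside the thymus range. Tox and Satb1 exceeded the other spleen arrays by 0.096 and 0.028, and Cbfb lay inside their range. In all, 9 of the 10 genes were outside the range of the 8 other spleen arrays, against 32.9% of all genes, and 4 were outside it by at least 1 on the log2 scale (Cd4, Cd8a, Cd8b1 and Zbtb7b), against 0.63% of all genes (86 genes). Within the group of 5 arrays, its gap to the others exceeded Dixon's critical value for 5 of the 10 genes, against 5.52% of all genes. The array was set apart with its coreceptor levels known, so these counts are no independent test for Cd4, Cd8a and Cd8b1. As 1 array it gives no comparison of conditions.

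Marker lists were read on the same array. Of 15 markers of CD4+ helper and regulatory T cells, all 15 exceeded the filter level on replicate 28, against 11 to 13 in WT spleen and 12 to 13 on the other ENK KO spleen arrays. Without Cd4 and Zbtb7b, the summed level of the other 13 was 13.88 on the log2 scale, against 11.91 to 12.37 in WT spleen, 11.80 to 12.12 on the other ENK KO spleen arrays and 11.87 to 12.12 in thymus. Foxp3, which defines regulatory T cells, reached 9.87 where the other spleen arrays had 7.34 to 7.48, and Cd40lg, a ligand of activated helper cells, was at 10.51 against 5.73 to 6.60. St8sia6 was at 11.43 against 6.78 to 7.08, while Cxcr5 was at 7.15 against 7.47 to 8.39. The CD8+ T cell markers went the other way. Without Cd8a and Cd8b1, the summed level of 8 was 11.78, against 14.59 to 14.98 in WT spleen and 14.26 to 14.76 on the other ENK KO spleen arrays. Nkg7, a granule protein gene, was at 9.34 against 13.19 to 13.43, and Eomes was at 7.34 against 10.27 to 10.82. Of 7 markers of double-positive thymocytes the summed level was 9.77, against 9.48 to 9.82 on the other spleen arrays and 14.73 to 14.85 in thymus, with Rag1 at 6.00 and Rag2 at 4.46.

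Markers of other cells were read in the same way. The summed level of 7 B cell markers was 10.15, below the 10.30 to 11.05 of the other spleen arrays. Only Cd79b lay outside its range there, at 8.33 against 9.30 to 9.81, and the mean level of the list (7.19) lay inside that of the other spleen arrays. That of 10 myeloid and dendritic markers was 10.17 against 9.99 to 10.35, and that of 6 NK markers 8.93 against 8.49 to 9.15. Of the myeloid and dendritic markers 3 lay above the other spleen arrays and 1 below. Those above were Itgam at 6.81 (against 6.30 to 6.62), Fcgr3 at 7.06 (6.60 to 6.93) and Cd209a at 7.28 (up to 7.25). Of the NK markers Klrb1c lay above its range, at 5.25 against at most 5.19, and 1 lay below. Their part in the result was not tested.

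**Figure D4:**
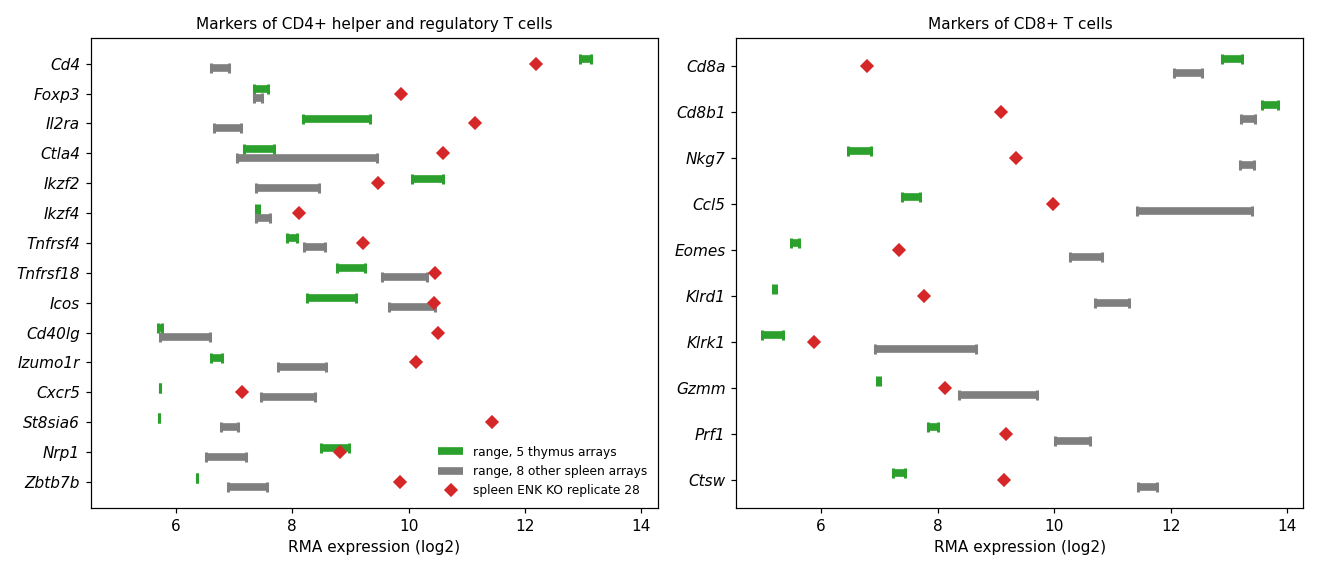
Log2 RMA level of 15 markers of CD4+ helper and regulatory T cells (left) and 10 markers of CD8+ T cells (right). Green bars span the 5 thymus arrays, grey bars the 8 other spleen arrays, ticks mark the ends of each span, and the red diamond is spleen ENK KO replicate 28, at 12.20 for Cd4 and 6.78 for Cd8a.

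Pairs of genes were also set against each other within each array, where the difference of 2 log2 values cancels what the array does to both. Such a difference is read only between groups, since probe sets differ in brightness. Zbtb7b minus Runx3 was -1.85 ± 0.08 (SD, n = 3) in WT thymus and -4.60 ± 0.31 (n = 4) in WT spleen, and -1.11 on replicate 28. Runx1 minus Runx3 was 3.38 ± 0.06 in WT thymus and -1.59 ± 0.18 in WT spleen, and 0.38 on replicate 28. For both pairs the WT populations were fully separate, at the smallest p that 3 arrays against 4 allow (exact two-sided permutation p = 0.0286, adjusted p = 0.129 over the 9 tests of 3 pairs in 3 comparisons). The Zbtb7b side of the first pair rests on a thymus level under the filter level. Cd8a minus Cd8b1 was -0.85 ± 0.11 (n = 3) in WT thymus and -0.51 ± 0.07 (n = 2) in ENK KO thymus, with every ENK KO array above every WT array. The difference of 0.34 had the smallest p that 3 arrays against 2 allow (exact permutation p = 0.1, adjusted p = 0.3). In spleen the same pair stood at -1.04 ± 0.25 (n = 4) in WT and at -0.90 to -0.69 on the 4 other ENK KO arrays (exact permutation p = 0.2 without replicate 28; difference 0.21), and at -2.31 on replicate 28.

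**Figure D5:**
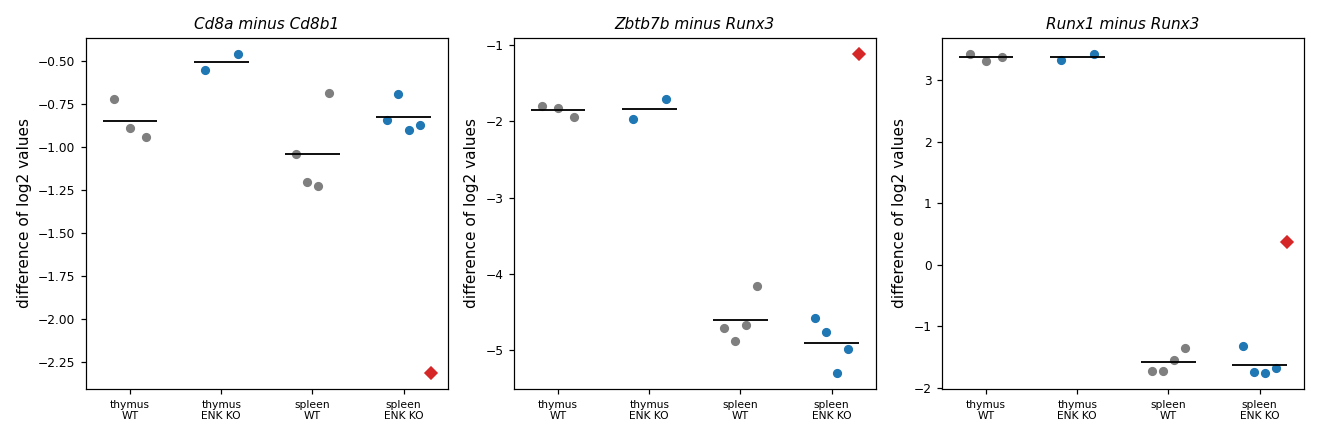
Difference of 2 log2 values within each array, for 3 pairs of genes, by group. Grey points are WT, blue points ENK KO, lines the group means without replicate 28, and the red diamond spleen ENK KO replicate 28. For Runx1 minus Runx3 the WT thymus arrays lie at 3.31 to 3.44 and the WT spleen arrays at -1.73 to -1.36.

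Other genes of coreceptor control were read from 3 lists, in WT spleen against WT thymus with all arrays. Of the 39 genes tested 29 were called, against 68.6% of all genes (30.5% higher and 38.2% lower). Of 14 tested factors that repress or remodel the coreceptor loci, 9 were lower and 2 higher. Patz1, which encodes MAZR, a repressor of Cd8 and of Zbtb7b, differed by -1.51 (SE 0.056), and Smarca4 and Smarce1, chromatin remodelling subunits that act in Cd4 silencing and Cd8 activation, by -1.16 and -1.06. Tle4, a corepressor gene, differed by 1.71 (SE 0.061). All 4 had a limma adjusted p of at most 1.21e-08. Of 13 tested lineage factors, 5 were higher and 4 lower. Myb, which acts upstream of Gata3, differed by -3.44 (SE 0.20, 10.9-fold) and Tcf12, the HEB gene, by -1.39, while Nfatc1 and Nfatc2, mediators of receptor signals, differed by 1.05 and 1.52. Of 12 tested genes of the signals coupled to coreceptors, 2 were higher and 7 lower. Il7r, whose signals induce Runx3, differed by 6.93 (SE 0.14), and Themis, a receptor signalling gene of thymocytes, by -1.49. Socs1, a cytokine signal inhibitor, and Stat5b differed by -0.89 and -1.15. The 3 lists had median log2 differences of -0.49, 0.12 and -0.25, against -0.045 over all genes tested.

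None of these 39 genes was called between genotypes, where 0.0147% of all genes were called in thymus and 0.00733% in spleen. Limma's p before adjustment was under 0.05 for 4 of the 39 in thymus (3.53% of all genes), all among the 12 signal genes, and 3 in spleen (8.37%). Besides those named next, these were Ptprc (0.10), Lat (-0.27) and Il7r (0.40) in thymus and Chd4 (0.12) in spleen, named after their values were seen. In thymus the smallest p of each list were those of Smarca4 (0.10, SE 0.050), Egr1 (-0.19, SE 0.23) and Socs1 (-0.42, SE 0.097, adjusted p = 0.487). In spleen they were those of Patz1 (0.17, SE 0.049), Ets1 (0.12, SE 0.072) and Socs1 (-0.22, SE 0.071), the lowest adjusted p being 0.595. These values are from the fit with all 14 arrays. Without replicate 28 limma's unadjusted p in spleen was under 0.05 for 4 of 14 repressing or remodelling factors and 2 of 12 signal genes. For the lineage factors it was 0 of 13, and over all genes 9.72%. Ikzf3 (0.18), Smarce1 (-0.14) and Stat5a (-0.18) then joined Patz1, Chd4 and Socs1, named after their values were seen.

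The genes whose profile over the 14 arrays lay nearest were found from the root mean square difference between log2 profiles, each centred on its own mean. For Runx3 they were Golm1 (0.19), Dse (0.21) and Sema4a (0.22), all low in thymus and high in spleen with replicate 28 between. For Zbtb7b they were Adh1 (0.15), Itgb3 (0.22) and Casp4 (0.39), and Adh1 reached 10.04 on replicate 28 where the other spleen arrays had 6.96 to 7.54. For Cd8b1 they were Tm6sf1 (0.56), Nedd4 (0.63) and Golm2 (0.70), and for Cd8a Ccr9 (0.90), Nedd4 (0.91) and Tm6sf1 (0.93). Ccr9, a chemokine receptor gene of thymocytes, had 7.67 on replicate 28 where the other spleen arrays had 10.66 to 11.81. No gene came close to Cd4, where Aqp11 (1.30), Plxnd1 (1.31) and Dntt (1.33) were high in thymus and low in spleen but stayed at 7.15, 7.55 and 6.59 on replicate 28. These likenesses are descriptions over 14 arrays that share 2 tissues.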

How the data were processed

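The authors deposited 1 log2 value per probe set and array, computed with RMA per the submitters' processing notes. The RMA software, its version, the genome build and the joint or separate normalization of the arrays were not given in the sources used here. Of 28213 probe sets, 21640 had 1 gene symbol in the platform annotation, 1321 had several and 5252 had none in the table used. RefSeq's GRCm38.p6 table, matched by gene ID, changed 0 symbols. Where a symbol had several probe sets, the brightest on average stood for it. A gene entered the tests with at least 2 arrays above 6.76, the 40th percentile of the table.

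Limma 3.58.1 (R 4.3.3) fitted 4 group means to the 14 arrays together, with eBayes and a variance trend, with Benjamini-Hochberg adjustment across the 13641 genes. One variance per gene serves every group, since thymus ENK KO has only 2 arrays. Each limma result and each test of gene pairs was repeated without spleen ENK KO replicate 28, but the search for nearest profiles was not. Within-array differences of gene pairs were tested with an exact permutation test (two-sided, difference of means). Only the limma comparisons between genotypes were run on simulated data, with independent normal noise and no outlying array. The other steps were not. The number of arrays limits the precision.

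The members and the lists were chosen with earlier results of these data known. By rule the 10 members are always named, with up to 4 genes per neighbour list of smallest p (1 per list between genotypes), any gene of the marker lists, and the 3 nearest profiles of 5 members. Alternatives were no filter, a 60th percentile filter (9470 genes), quantile normalization, median centring, probe sets of a gene averaged, no variance trend, robust eBayes, an age of 2 months as a covariate, no 2-month-old animals, each tissue fitted alone, and arrays left out.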

Additional observations from a re-analysis of the deposited data

Results flagged for a closer look

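On the array labelled spleen ENK KO replicate 28, 5 of the 10 genes lay so far from the other 4 arrays of the group that the gap exceeded Dixon's 95% critical value for 5 samples (0.710 of the group's range). They were Cd4 at 12.20, Cd8a at 6.78, Cd8b1 at 9.10, Zbtb7b at 9.86 and Runx3 at 10.97. The coreceptor levels were known when the array was set apart, so their flags are no independent test. Chance flags about 1 in 20 groups by any 1 of their arrays, and 20 groups of spleen values were read this way. Over all genes tested, this array lay past the same value for 5.52%, and 32.9% lay outside the range of the 8 other spleen arrays. The 5.52% counts this 1 array only, so the 1 in 20 is not its chance rate. No WT spleen array lay past the value for 4 samples (0.829) for any of the 10 genes. The CD4+ and CD8+ T cell marker lists moved with these values on the same array, and their part was not tested.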

How the results depend on the processing

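No paired analysis was possible because no replicate number occurs in more than 1 group. None of the 10 genes was called between genotypes, in either tissue or in the difference between tissues, without any single array or under any other setting run. The number called in the population comparison ran from 6 to 10 in WT and from 5 to 9 in ENK KO with 1 array left out. The differences of sign below are all log2 differences of uncalled results, and their cause was not tested.

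In thymus, ENK KO minus WT with an age of 2 months as a covariate gave -0.58 for Cd8a, 0.23 for Runx1, -0.013 for Cbfb, 0.019 for Gata3, 0.086 for Tox and 0.030 for Satb1. That fit kept spleen ENK KO replicate 28 (6 months, Cd8a at 6.78), and thymus and spleen shared its age term. These thymus values therefore also drew on the spleen arrays and are no age-adjusted estimate from thymus alone. Without the 2-month-old animals ENK KO minus WT in thymus gave 0.12 for Runx3, 0.071 for Runx1, 0.029 for Gata3 and 0.14 for Tox. Quantile normalization gave 0.018 for Satb1, and 0.058 for Cbfb between the ENK KO populations. With 1 array left out the thymus values ran from -0.15 to 0.12 for Runx3, -0.093 to 0.071 for Runx1, -0.32 to 0.029 for Gata3, -0.23 to 0.14 for Tox and -0.35 to 0.072 for Egr1.

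In spleen, leaving out replicate 28 and WT replicate 22 gave -0.032 for Cd4, 0.28 for Cd8a, -0.20 for Zbtb7b and -0.043 for Gata3. Spleen fitted alone without replicate 28 gave -0.031 for Cd4, 0.20 for Cd8a, -0.28 for Zbtb7b, 0.025 for Runx3 and -0.011 for Runx1. With 1 array left out the values ran from -0.031 to 1.37 for Cd4, -1.24 to 0.20 for Cd8a, -0.28 to 0.46 for Zbtb7b, -0.28 to 0.025 for Runx3, -0.011 to 0.29 for Runx1 and 0.0010 to 0.19 for Gata3.

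The spleen effect minus the thymus effect, without replicate 28 and WT replicate 22, was -0.029 for Cd4, 0.13 for Cd8a, 0.15 for Cd8b1 and -0.20 for Zbtb7b. With 1 array left out it ran from -0.028 to 1.37 for Cd4, -1.39 to 0.050 for Cd8a, -0.89 to 0.18 for Cd8b1, -0.28 to 0.46 for Zbtb7b, -0.30 to 0.037 for Runx3 and -0.043 to 0.33 for Tox. Among the pairs of genes with 1 array left out, Zbtb7b minus Runx3 ran from -0.12 to 0.15 in thymus and from -0.30 to 0.74 in spleen between genotypes. In spleen Cd8a minus Cd8b1 ran from -0.19 to 0.21 and Runx1 minus Runx3 from -0.036 to 0.50. Leaving out a thymus ENK KO array leaves 1, which is then assumed to vary like the other groups. Zbtb7b did not pass the 60th percentile filter, and its thymus level and the spleen level of Cd4 are limited by signal over background.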
